A study of Schizosaccharomyces pombe with 6 samples.

Results

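The deposited RNA-seq table of *Schizosaccharomyces pombe* holds 42 transcripts that carry no gene name. They were chosen as the rows whose identifier starts with MSTRG., the prefix that StringTie gives to a locus it assembled from mapped reads, and whose symbol field is empty or repeats that identifier. They are 42 of 5184 rows. A further 6 MSTRG. rows carry a symbol, and the other 5136 rows are annotated genes. The choice by identifier and symbol used no expression value, although a locus received such an identifier only because reads were assembled into it. Of the annotated rows, 5105 matched protein-coding genes and 4 matched pseudogenes in RefSeq, and the remaining 27 were not matched. None of the matched rows was a non-coding RNA gene. "Unannotated" therefore means here without a gene identifier in this table, and whether a member corresponds to a non-coding RNA gene listed elsewhere was not analysed.

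The study compared *htb1-K119R* cells with WT cells, with 3 libraries of each genotype from independent biological repeats. In *htb1-K119R* (*h⁻ ura4-D18 htb1-K119R::kanMX6*), the lysine of histone H2B that receives a single ubiquitin is replaced by arginine, so that H2B monoubiquitination (H2Bub) is lost. The strain that the study names as WT in its other experiments, TK8, is *h⁺ ade6-M216 leu1-32 ura4-D18*. Mating type, the *ade6* and *leu1* alleles, and the *kanMX6* marker thus differ together with *htb1* and cannot be told apart from it. The RNA came from whole cells and was enriched with oligo(dT), so that transcripts without a poly(A) tail are depleted.

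Yeast genomes are transcribed well beyond their protein-coding genes, into intergenic, antisense, and promoter-derived RNAs. Most of these RNAs are short-lived, because termination factors end them early and the nuclear exosome, a complex that degrades RNA from the 3′ end, removes them. Chromatin also holds such transcription down, since histone chaperones, remodelers, and deacetylases restore nucleosomes behind RNA polymerase II, and H2Bub is laid down in the course of that elongation.

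Library totals lay between 18068808 and 18853455 counts in *htb1-K119R*, and between 15987167 and 20701391 in WT. WT replicate 3 stood apart from the other WT libraries, with a TMM composition factor of 1.17, compared with 0.824 and 0.863 for WT replicates 1 and 2. The factors of the *htb1-K119R* libraries were 1.01 to 1.13. The *htb1*⁺ gene (SPCC622.09) was counted 28635, 25253, and 28199 times in *htb1-K119R*, and 24421, 24905, and 32936 times in WT. These counts do not show the substitution, so they do not check the genotype labels. The *ura4*⁺ gene (SPCC330.05c), which neither strain's genotype retains, had 0 counts in all 6 libraries.

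The unannotated transcripts were mostly of low level. Their mean FPKM (read fragments scaled to transcript length and to mapped reads) over the 6 libraries had a median of 3.10 and ranged from 0.579 to 181.5, while the 5136 annotated genes had a median of 11.8. The mean FPKM was under 10 in 34 of the 42, and 7 lay above the median of all rows. Only 4 reached a mean FPKM of 50, namely MSTRG.2892 (181.5), MSTRG.4287 (128.5), MSTRG.4008 (74.6), and MSTRG.5208 (68.3). MSTRG.2491 followed with 28.8.

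The table gives neither coordinates nor sequences for these rows, and the length of each was therefore derived from the ratio of its count to its FPKM. The ratio was scaled on the RefSeq transcript lengths of 4906 annotated genes, of which 82.6% then came within 10% of their RefSeq length. The 39 unannotated transcripts with at least 20 counts in a library had a median length of 933 nt, with a range from 267 nt (MSTRG.1713) to 3265 nt (MSTRG.4663). Annotated genes with at least 20 counts had a median of 1790 nt (n = 4920). In total, 23 of the 39 (59.0%) were shorter than 1000 nt, compared with 16% of annotated genes. The 19 unannotated transcripts with at least 100 counts in a library were longer, with a median of 1371 nt. Lengths were a description of how the authors' assembly drew these loci, and a locus entered the table only because reads were assembled into it. Which libraries were assembled is not given in the sources used here.

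**Figure D1:**
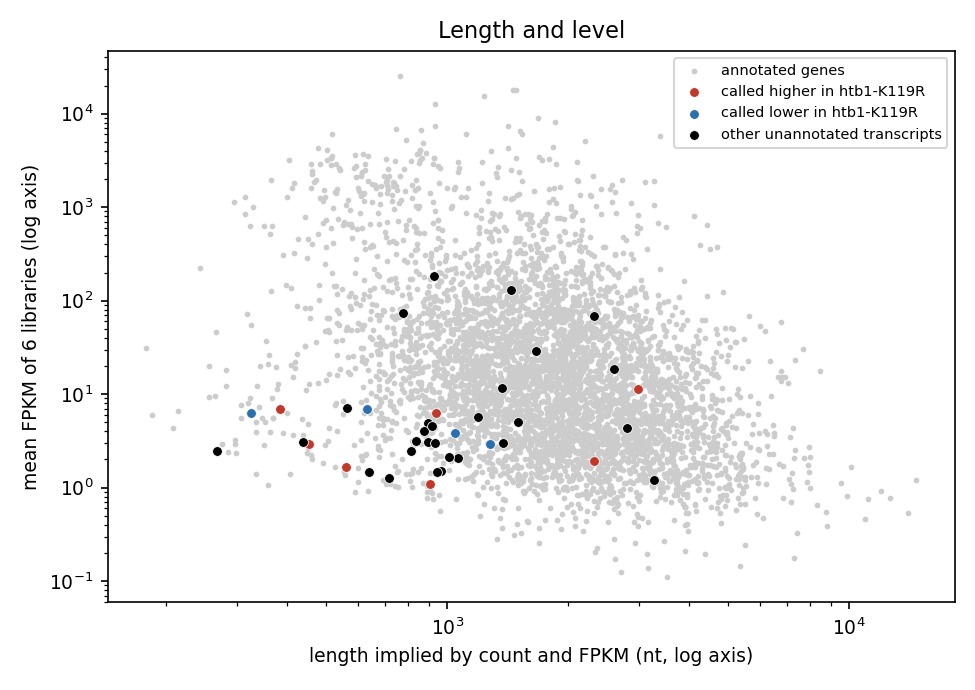
Mean FPKM over the 6 libraries (log axis) plotted against the transcript length derived from count and FPKM in nt (log axis), with annotated genes in grey and the unannotated transcripts with at least 20 counts in red (called higher in *htb1-K119R*), blue (called lower), or black (others). Most unannotated transcripts sit in the lower left, around the median length of 933 nt and below a mean FPKM of 10.

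The 42 transcripts together took a small share of the counted reads, and this share did not differ between the genotypes beyond the spread between libraries. It was 0.0838%, 0.0928%, and 0.0793% in *htb1-K119R* replicates 1 to 3, and 0.0798%, 0.0807%, and 0.0874% in WT replicates 1 to 3. The ranges overlapped, and the means were 0.0853% ± 0.00684 in *htb1-K119R* and 0.0826% ± 0.00417 in WT (SD, n = 3 each; two-sided exact permutation test, *P* = 0.7, where the smallest value that 3 against 3 libraries can give is 0.1). The 3 transcripts of highest count alone held 57.1% to 58.5% of the member counts in *htb1-K119R* and 66.7% to 68.0% in WT. Without the 5 of highest mean count, the share was 0.0241%, 0.0258%, and 0.0222% in *htb1-K119R*, against 0.0163%, 0.0171%, and 0.0183% in WT. Here the genotypes did not overlap (0.0241% ± 0.00180 in *htb1-K119R* and 0.0172% ± 0.00101 in WT, SD, n = 3 each; two-sided exact permutation test, *P* = 0.1, the smallest possible). Among the rest, MSTRG.2491 and MSTRG.275 had the highest counts. MSTRG.2491 had 1072, 1165, and 971 counts in *htb1-K119R* and 669, 629, and 796 in WT. MSTRG.275 had 931, 978, and 884 counts in *htb1-K119R* and 300, 327, and 407 in WT. The difference in this share leans on these transcripts and is not shown for the rest as a group. The shares of counted reads rest on library totals without composition factors. With such totals, the median log2 fold change of all tested genes was 0.15, compared with −0.01 with TMM factors. How much of the difference in share comes with this shift was not tested. The share of summed FPKM, in which length is divided out, was 0.0863% ± 0.00614 in *htb1-K119R* and 0.0771% ± 0.00398 in WT (SD, n = 3 each; exact permutation test, *P* = 0.2).

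**Figure D2:**
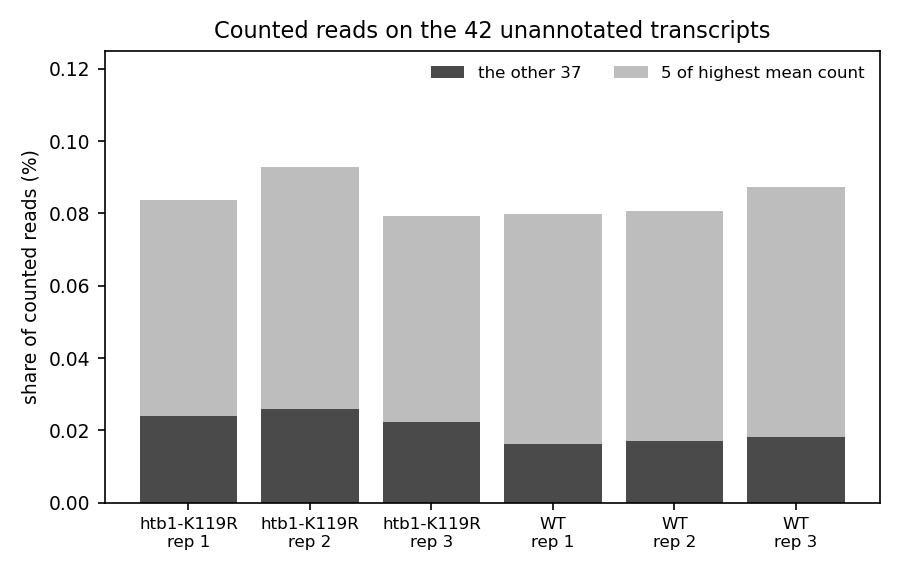
Share of all counted reads (%) on the 42 unannotated transcripts in each library, split into the 5 of highest mean count (light) and the other 37 (dark). The full bars overlap between the genotypes, whereas the dark parts reach 0.0222% to 0.0258% in *htb1-K119R* and 0.0163% to 0.0183% in WT.

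At least 10 counts were found for 39, 40, and 40 of the 42 in *htb1-K119R*, against 34, 35, and 37 in WT (two-sided exact permutation test, *P* = 0.1, the smallest possible). WT replicates 1 and 2 were also the libraries of lowest depth. At a level of at least 1 CPM, a count scaled to the library total, the numbers were 36, 37, and 35 in *htb1-K119R* and 31, 34, and 34 in WT (exact permutation test, *P* = 0.1). The shift of all genes under library totals applies to this level as well. With at least 3 counts as the limit, 42, 40, and 41 were found in *htb1-K119R* and 40, 40, and 39 in WT (exact permutation test, *P* = 0.3). Thus nearly all members were counted in each genotype, whereas MSTRG.4284 had at most 1 count in any WT library. In bulk RNA, a change in every cell and a change in some of the cells cannot be told apart.

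To compare the levels between the genotypes, the counts of the whole table were fitted with edgeR's quasi-likelihood test, and FDR denotes the *P* value after Benjamini-Hochberg adjustment over all 4969 genes tested. A gene was called when its FDR was below 0.05 and its change was more than 2-fold. The low-count filter kept 39 of the 42 and removed MSTRG.2024, MSTRG.2407, and MSTRG.4237. Of the 39, 11 were called (28.2%), while 8.35% of all tested genes were called. In *htb1-K119R*, 7 were higher (4.71% of all tested genes were) and 4 were lower (3.64% of all tested genes were). Calls were more frequent among weakly expressed genes in general. They made up 12.4% of the tested genes with a mean FPKM under 10, to which 31 of the members with 10 of the calls belonged, and 5.03% of those with a mean FPKM of at least 10, to which 8 members with 1 call belonged.

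The filter itself bears on these counts. MSTRG.828, MSTRG.4284, MSTRG.1895, MSTRG.3603, and MSTRG.1713 reached the filter level in *htb1-K119R* only, and the first 4 of them were called higher. MSTRG.3505 reached it in WT only. Among the 33 members at the filter level in each genotype, 3 were called higher and 4 lower, while 7.65% of all genes at that level were called. In this smaller set the calls were close to evenly split by direction. Without WT replicate 3, 5 of all tested members were called higher (5.84% of all genes were) and 4 lower (4.29% of all genes were). With library totals in place of TMM factors, 9 members were called higher and 3 lower. All genes tilted in the same direction there, with 6% called higher, 2.17% called lower, and a shift of their median log2 fold change to 0.15. After a correction for transcript length, 9 members were called higher (4.25% of all genes were) and 3 lower (3.24% of all genes were).

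Including changes of any size, 17 of the 39 (43.6%) had an FDR below 0.05, and so did 37.9% of all tested genes. Of these, 9 were higher in *htb1-K119R* (18.6% of all tested genes were) and 8 were lower (19.3% of all tested genes were). The libraries of the genotypes did not overlap in 22 of the 39 (56.4%), compared with 48.8% of all tested genes. In 12 of them *htb1-K119R* lay above WT (25% of all tested genes) and in 10 below (23.9% of all tested genes). The median log2 fold change over the 39 was −0.03 and the quartiles were −0.50 and 0.76, while the median of all tested genes was −0.01. The members thus ran in each direction around a median close to that of all genes.

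**Figure D3:**
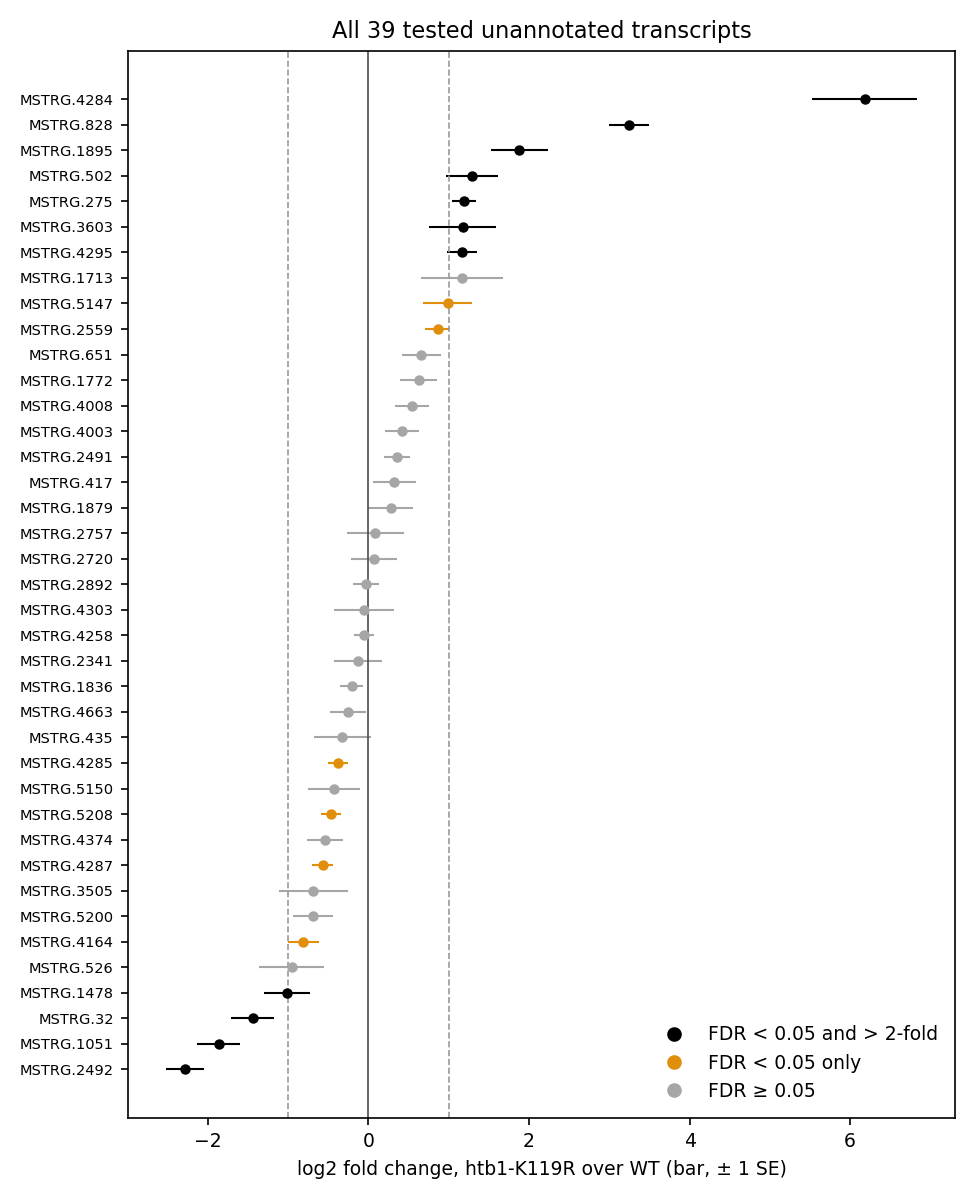
Log2 fold change, *htb1-K119R* over WT, of all 39 tested unannotated transcripts with bars of ± 1 SE, where black points have an FDR below 0.05 and a change above 2-fold, orange points an FDR below 0.05 only, and grey points neither. The points run from −2.28 (MSTRG.2492) to 6.18 (MSTRG.4284), and the dashed lines mark a 2-fold change.

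Among the called transcripts, the 7 that rose in *htb1-K119R* ran from MSTRG.4284, hardly detected in WT, to MSTRG.275, with 300 counts or more in every library. MSTRG.4284, a transcript of about 904 nt, had 36, 38, and 38 counts in *htb1-K119R*, against 0, 1, and 0 counts in WT. Every *htb1-K119R* library was thus far above every WT library. Summed over libraries, 112 against 1 counts give a ratio of 107.1 after scaling to the library totals, with a 95% interval from 18.84 to 4269 that covers counting error only. The fitted log2 fold change was 6.18 (SE 0.653, FDR = 6.77e-05 in edgeR's quasi-likelihood test), a value that depends on how the fit treats the near absence of WT counts. It was 8.20 without WT replicate 2, the library with the only WT count, and 5.44 without WT replicate 3.

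MSTRG.828 was the other transcript with a change of more than 4-fold upward. It was counted 155, 148, and 155 times in *htb1-K119R*, against 8, 9, and 26 times in WT. After normalization this was 7.81 ± 0.454 CPM in *htb1-K119R* and 0.776 ± 0.259 CPM in WT (SD, n = 3 each), a log2 fold change of 3.24 (SE 0.250, FDR = 8.53e-06). The WT library with the 26 counts was replicate 3, which was also the deepest, and it still lay below all *htb1-K119R* libraries. With a length of about 2322 nt, MSTRG.828 was longer than the median annotated gene.

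MSTRG.275, of about 2988 nt, was the most abundant of the called transcripts. Its FPKM was 16.1, 17.7, and 15.8 in *htb1-K119R*, against 6.13, 6.62, and 6.43 in WT. The replicates were close to each other and the genotypes were well separated. The counts behind it were 931, 978, and 884 in *htb1-K119R* and 300, 327, and 407 in WT, and the log2 fold change was 1.19 (SE 0.147, FDR = 0.000175). It was the only called transcript with a mean FPKM of at least 10, at 11.5.

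MSTRG.4295 (about 936 nt) was counted 194, 155, and 131 times in *htb1-K119R*, against 51, 51, and 82 times in WT. The log2 fold change was 1.17 (SE 0.187, FDR = 0.000891), and no libraries overlapped. MSTRG.1895 (about 453 nt) had 38, 50, and 32 counts in *htb1-K119R* and 9, 8, and 11 in WT. Its log2 fold change was 1.88 (SE 0.357, FDR = 0.00245), again without overlap.

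The remaining pair that rose rested on less stable differences. MSTRG.502, a transcript of about 384 nt, had 79, 67, and 75 counts in *htb1-K119R*, against 33, 19, and 23 in WT. Its normalized level was 3.76 ± 0.104 CPM in *htb1-K119R* and 1.61 ± 0.806 CPM in WT (SD, n = 3 each), so that the WT libraries were spread more widely, and the log2 fold change was 1.29 (SE 0.321, FDR = 0.0103). Without WT replicate 3, the log2 fold change was 0.96 and the call was lost. MSTRG.3603 (about 561 nt) had 23, 32, and 21 counts in *htb1-K119R* and 12, 5, and 12 in WT, with a log2 fold change of 1.17 (SE 0.417, FDR = 0.0469). Its call was kept in only 1 of the 6 fits that left out a library, in which the log2 fold change ranged from 0.89 to 1.55. It was also lost in 5 of the 10 alternative fits, including DESeq2 (FDR = 0.0706), no low-count filter (FDR = 0.0619), and the replicate block (FDR = 0.0603).

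Turning to the 4 transcripts that fell in *htb1-K119R*, MSTRG.2492 showed the largest decrease. It was counted 36, 30, and 19 times in *htb1-K119R*, against 98, 103, and 154 times in WT. The normalized level was 1.44 ± 0.398 CPM in *htb1-K119R* and 7.06 ± 0.611 CPM in WT (SD, n = 3 each), and the log2 fold change was −2.28 (SE 0.240, FDR = 6.64e-05). Its derived length was 1047 nt, and the genotypes were clearly apart.

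MSTRG.1051, with a derived length of 326 nt, was among the shortest members. It had 19, 18, and 18 counts in *htb1-K119R* and 53, 49, and 69 in WT. The log2 fold change was −1.87 (SE 0.266, FDR = 0.000425) and the libraries did not overlap.

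MSTRG.32 (about 1277 nt) was counted 46, 40, and 40 times in *htb1-K119R*, against 104, 84, and 94 times in WT, with a log2 fold change of −1.44 (SE 0.273, FDR = 0.00241). The *htb1-K119R* libraries were nearly identical after normalization (2.14 ± 0.0677 CPM), while the WT libraries ranged from 3.88 to 7.90 CPM and were lowest in replicate 3. On the scale of log2(FPKM + 1), where the added 1 is large for so low a transcript, the change was −0.90 and the call was lost.

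MSTRG.1478 (about 632 nt) was at the border of the 2-fold limit. It had 50, 64, and 65 counts in *htb1-K119R* and 94, 109, and 95 in WT. The lowest WT library, replicate 3 with 3.92 CPM, was only just above the highest *htb1-K119R* library with 3.51 CPM. The log2 fold change was −1.01 (SE 0.285, FDR = 0.0182), and the 6 fits that left out a library gave −1.29 to −0.82, with the call lost in 3 of them. Among the 11 alternative fits the call was kept in 4, and it was lost with library totals (−0.82, FDR = 0.0554), the replicate block (−0.99), length correction with or without the block, and each limma fit.

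**Figure D4:**
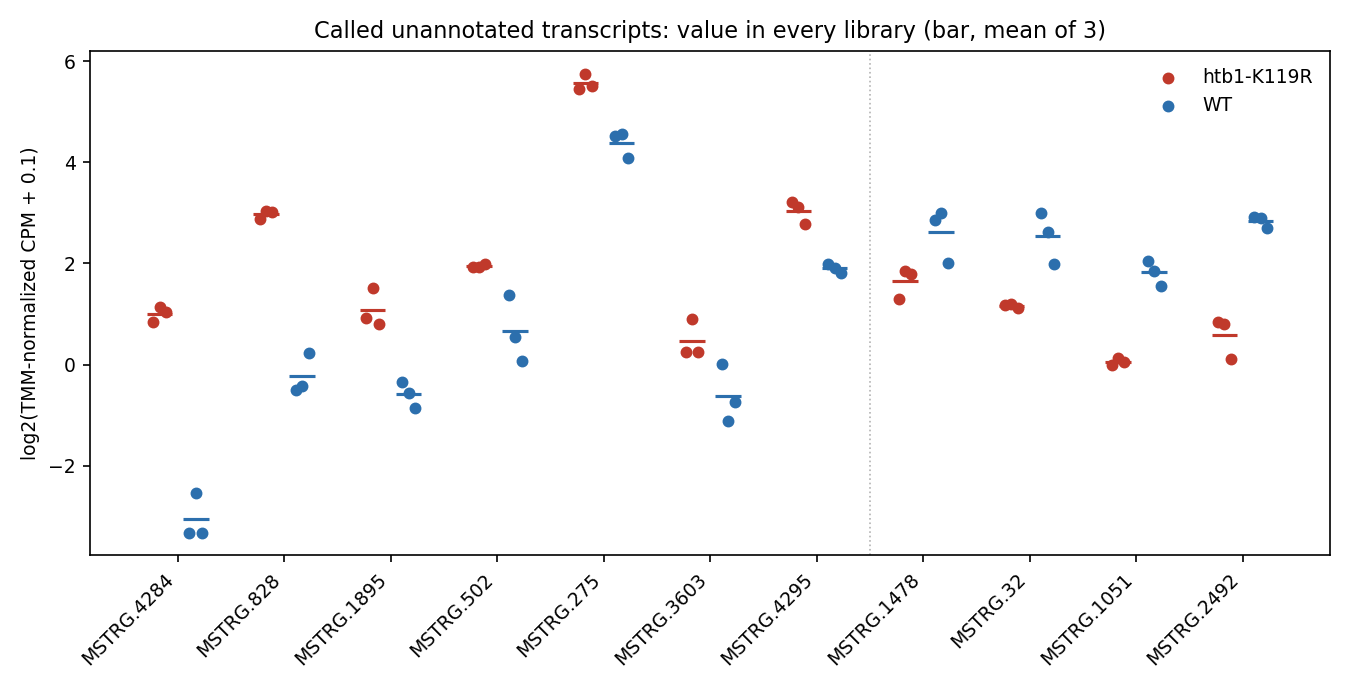
Level of the 11 called unannotated transcripts in each library as log2(TMM-normalized CPM + 0.1), with *htb1-K119R* in red, WT in blue, and a bar at the mean of 3 libraries. The 7 transcripts left of the dotted line were called higher and the 4 right of it lower in *htb1-K119R*, the genotypes do not overlap in any of them, and MSTRG.4284 falls to the floor of the scale in WT.

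For 7 of the 11, the call was the same in every alternative that tested them. MSTRG.4284, MSTRG.828, MSTRG.1895, MSTRG.275, MSTRG.4295, MSTRG.2492, and MSTRG.1051 kept it in each of the 10 or 11 alternative fits that gave them a value and in all 6 fits that left out a library. The fit with at least 10 counts in every library gave no value for MSTRG.4284, MSTRG.828, and MSTRG.1895. Those members reached the filter level in *htb1-K119R* only. With the low-count filter, they were thus tested only through the genotype where they were high. In the alternative fits, the log2 fold change lay between 1.77 and 3.38 for MSTRG.828, 1.01 and 1.37 for MSTRG.275, −2.31 and −1.58 for MSTRG.2492, and −1.88 and −1.42 for MSTRG.1051. MSTRG.4284 had the widest range, from 1.64 on the scale of log2(FPKM + 1) to 6.45.

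**Figure D5:**
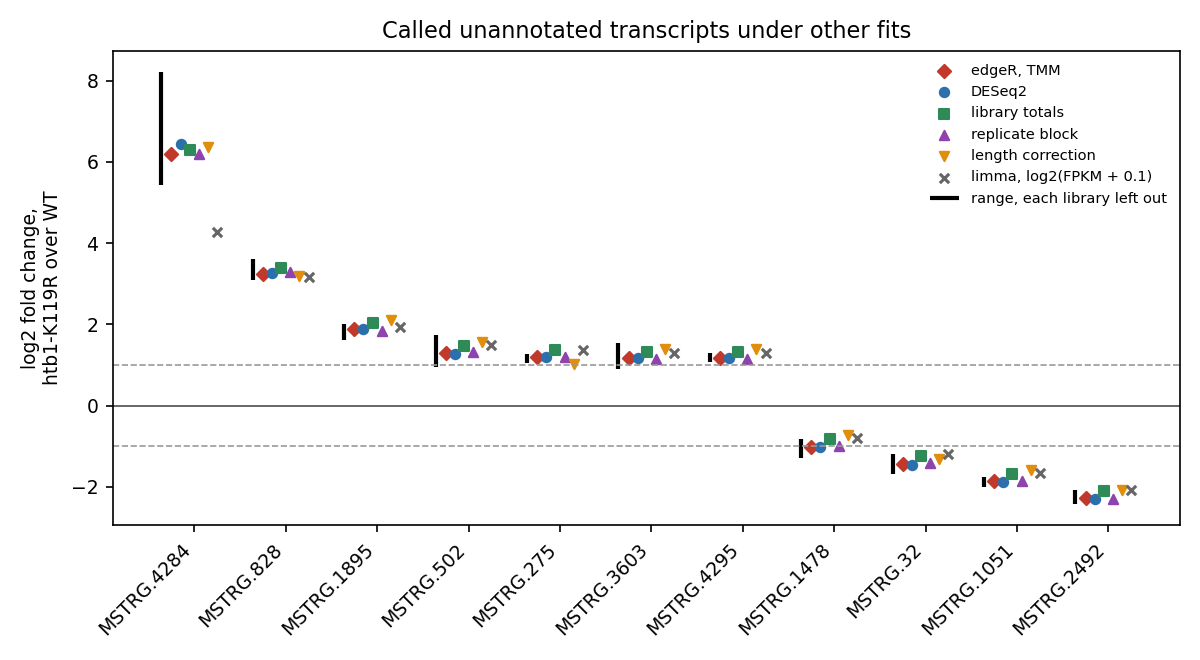
Log2 fold change, *htb1-K119R* over WT, of the 11 called unannotated transcripts in the edgeR fit with TMM factors (diamonds) and in other fits (other symbols), with black lines for the range when each library is left out. The dashed lines mark a 2-fold change, which MSTRG.502, MSTRG.3603, and MSTRG.1478 cross in some of the fits drawn, whereas MSTRG.828 does not go below 3.10 when a library is left out.

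Next, the most abundant unannotated transcripts were examined. None of the 5 with the highest mean FPKM changed more than 2-fold. MSTRG.2892, of about 925 nt, reached 197.7, 208.4, and 169.9 FPKM in *htb1-K119R*, and 173.6, 175.6, and 164.0 FPKM in WT. Its log2 fold change was −0.03 (SE 0.161, FDR = 0.901) on TMM-normalized counts. This sign was opposite to that of the FPKM means and turned to 0.17 with library totals. MSTRG.2892 thus showed no difference beyond the spread between replicates.

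MSTRG.4287 (about 1442 nt) and MSTRG.5208 (about 2318 nt) were modestly lower in *htb1-K119R*. MSTRG.4287 was counted 2939, 3192, and 2918 times in *htb1-K119R*, against 3310, 3280, and 4910 times in WT, with a log2 fold change of −0.57 (SE 0.127, FDR = 0.00574). MSTRG.5208 was counted 2553, 2859, and 2634 times in *htb1-K119R*, against 2639, 2730, and 4176 times in WT, with a log2 fold change of −0.46 (SE 0.123, FDR = 0.0141). The raw counts of MSTRG.5208 overlapped between the genotypes, and the separation appeared after normalization (120 to 157 CPM in *htb1-K119R* and 172 to 200 CPM in WT). In the alternative fits the FDR of MSTRG.4287 reached up to 0.0708 and that of MSTRG.5208 up to 0.172. When a library was left out, the FDR of MSTRG.4287 reached at most 0.0398. MSTRG.5208 no longer passed without *htb1-K119R* replicate 1 (FDR = 0.0826), *htb1-K119R* replicate 3 (FDR = 0.0646), or WT replicate 2 (FDR = 0.0619).

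MSTRG.4008 (about 775 nt) had 64.1, 86.4, and 59.8 CPM in *htb1-K119R*, against 58.8, 53.3, and 32.7 CPM in WT. The lowest *htb1-K119R* library was only slightly above the highest WT library, and the log2 fold change of 0.55 (SE 0.208, FDR = 0.0605) did not pass the threshold. MSTRG.2491 (about 1660 nt) had 50.4, 64.0, and 50.2 CPM in *htb1-K119R* and 50.8, 45.2, and 32.9 CPM in WT, which overlapped (log2 fold change 0.36, SE 0.163, FDR = 0.106). In the alternative fits, the FDR of MSTRG.4008 ran from 0.000314 (length correction with the replicate block) to 0.0698 (RLE normalization). It passed the threshold with library totals, the replicate block, length correction with or without the block, and each limma fit. The FDR of MSTRG.2491 ran from 0.0203 (library totals) to 0.136 (DESeq2). It passed in the same fits except length correction without the block. Neither passed with DESeq2, RLE normalization, or a changed count filter.

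Besides the 11 called transcripts, 6 had an FDR below 0.05 without a 2-fold change. In addition to MSTRG.4287 and MSTRG.5208, these were MSTRG.4285 and, named after their values were seen, MSTRG.5147, MSTRG.2559, and MSTRG.4164. MSTRG.2559 was higher in *htb1-K119R*, with 198, 189, and 185 counts there and 62, 78, and 138 counts in WT (log2 fold change 0.86, FDR = 0.00209). MSTRG.5147 was higher as well (50, 69, and 55 counts in *htb1-K119R* and 19, 28, and 28 in WT), and its log2 fold change of 0.99 (FDR = 0.0258) fell just short of the limit. MSTRG.4164 was lower, with 67, 71, and 58 counts in *htb1-K119R* and 79, 81, and 140 counts in WT (log2 fold change −0.81, FDR = 0.00743). The last of them, MSTRG.4285 (about 2606 nt), was lower with 867, 899, and 798 counts in *htb1-K119R* and 796, 840, and 1216 counts in WT (log2 fold change −0.38, FDR = 0.0306), and its raw counts overlapped. MSTRG.4285 no longer passed with library totals (FDR = 0.314), in the limma fits (FDR = 0.279 to 0.283), or in 4 of the 6 fits that left out a library (FDR up to 0.127). The FDR of MSTRG.4164 was 0.0949 with library totals, and that of MSTRG.5147 reached 0.109 without *htb1-K119R* replicate 2.

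For the other 22 tested members the FDR was 0.05 or more, with 10 positive and 12 negative log2 fold changes. In 7 of the 22 the FDR was between 0.05 and 0.1. The 3 members that were not tested had too few reads to compare at this depth. MSTRG.2024 had 3, 0, and 1 counts in *htb1-K119R* and 3, 9, and 2 in WT. MSTRG.2407 had 5, 1, and 11 counts in *htb1-K119R* and 4, 2, and 1 in WT. MSTRG.4237 had 7, 10, and 10 counts in *htb1-K119R* and 2, 14, and 9 in WT. The genotypes overlapped in each of these.

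Short and long members were called in each direction. Of the 23 shorter than 1000 nt, 5 were called higher and 2 lower in *htb1-K119R*, while 3.73% of all tested genes of that length were called higher and 5.85% lower. Of the 16 of at least 1000 nt, 2 were called higher and 2 lower, while 4.92% of all tested genes of that length were called higher and 3.21% lower. Among those called higher, the shorter MSTRG.4284, MSTRG.1895, and MSTRG.3603 and the longer MSTRG.828 reached the filter level in *htb1-K119R* only. The filter thus bears on the numbers called higher in each length class. When the counts were corrected for transcript length, the median log2 fold change of the members was 0.21 while that of all genes was −0.01. The members' median thus stood 0.22 above that of all genes, compared with 0.01 above it when library totals were used.

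The authors' annotation text was present for 12 of the 42. It held database matches and Gene Ontology (GO) terms, and none of the 12 carried a KEGG entry. Among these, 3 matched hypothetical proteins of other organisms, namely MSTRG.4287 (the oomycete *Phytophthora citrophthora*), MSTRG.5208 (*Mitosporidium daphniae*), and MSTRG.4285 (*Pneumocystis* sp. 'macacae'). All 3 had a negative log2 fold change, with the FDR values and their losses given above. MSTRG.5208 also had the GO terms membrane, peptidase activity, and quorum sensing.

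Of the called transcripts, 4 carried GO terms. MSTRG.4295, which rose, had the term membrane. MSTRG.1895, which rose, had terms on viral capsid and lipopolysaccharide synthesis, MSTRG.3603, which rose, had a term on angiotensin signaling, and MSTRG.1478, which fell, had a term on modulation of host apoptosis by a symbiont. These last terms name processes of viruses, bacteria, or animals. How the terms were assigned is not given in the sources used here, and nothing is read from them.

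The other members with a term were not called. MSTRG.5200, with terms on the NatC N-terminal acetyltransferase complex, had 50, 79, and 65 counts in *htb1-K119R* and 81, 79, and 108 in WT (log2 fold change −0.69, FDR = 0.0510). MSTRG.1879 (regulation of transcription) had a log2 fold change of 0.28 (FDR = 0.455). MSTRG.2341 (regulation of transcription termination, and transcriptional attenuation by ribosome) was at −0.13 (FDR = 0.767). MSTRG.4303 (H3-K27 methyltransferase activity) was at −0.05 (FDR = 0.924). The signs of MSTRG.2341 and MSTRG.4303 flipped with library totals and with length correction. The libraries of the genotypes overlapped in MSTRG.1879, MSTRG.2341, and MSTRG.4303. MSTRG.4237, with the term dynactin complex, was not tested.

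Finally, annotated genes whose products limit or end transcription outside genes were examined in the same fit, as 3 lists. The lists were chosen with earlier results of these data known. Their counts beside the shares of all tested genes are therefore a description and not a test. For the nuclear exosome and its cofactors, all 23 genes were tested, and 3 were called higher (4.71% of all tested genes were) and 1 lower (3.64%) in *htb1-K119R*. At an FDR below 0.05, 5 were higher (18.6% of all tested genes were) and 5 lower (19.3%), which together is close to the 37.9% of all tested genes, and the median log2 fold change was 0.09 (−0.01 over all tested genes). The largest change was that of *rrp6* (SPAC1F3.01), which encodes the nuclear 3′-5′ exonuclease of the exosome. It was counted 135, 133, and 165 times in *htb1-K119R*, against 13, 12, and 26 times in WT (log2 fold change 2.90, SE 0.232, FDR = 1.14e-05), and it kept its call in all 11 alternative fits and all 6 fits that left out a library.

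The genes *mtl1* (SPAC17H9.02), for an Mtr4-like RNA helicase, and *cid14* (SPAC12G12.13c), for the poly(A) polymerase of the TRAMP complex, were higher as well. Their log2 fold changes were 1.16 for *mtl1* (SE 0.193, FDR = 0.00113) and 1.25 for *cid14* (SE 0.212, FDR = 0.00127). By contrast, *csl4* (SPCC1840.11), for an RNA-binding cap subunit of the exosome, was lower, with 99, 77, and 97 counts in *htb1-K119R* and 107, 117, and 285 in WT (log2 fold change −1.04, SE 0.193, FDR = 0.00215). The calls of *mtl1* and *csl4* were lost after length correction, at 0.95 for *mtl1* and −0.83 for *csl4*, and that of *csl4* also without WT replicate 3 or *htb1-K119R* replicate 2. Of the 11 alternative fits, 7 kept the call of *mtl1* and 5 that of *csl4*, which was also lost with library totals and each limma fit. On the scale of log2(FPKM + 1), *cid14* was at 0.98 and was not called either. The catalytic subunit gene *dis3* had a log2 fold change of 0.79 (FDR = 0.0135) and that of the helicase *mtr4* was 0.42 (FDR = 0.0586). The other 19 genes of the list were not called.

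The second list held genes that repress cryptic and antisense transcription, of which 15 of 17 were tested. Not tested were *asf1*, which matched no symbol, and *spt16*, which did not pass the low-count filter. In *htb1-K119R* 4 were called higher (4.71% of all tested genes were) and 0 lower (3.64%). At an FDR below 0.05, 6 were higher (18.6% of all tested genes were) and 1 was lower (19.3%), and the median log2 fold change was 0.26. The chromodomain remodelers *hrp1* (SPAC1783.05) and *hrp3* (SPAC3G6.01), the H3K36 methyltransferase *set2* (SPAC29B12.02c), and the HIRA complex subunit *hip1* (SPBC31F10.13c) made up the 4. *hrp1* was counted 1301, 1177, and 1303 times in *htb1-K119R*, against 205, 191, and 354 times in WT (log2 fold change 2.14, SE 0.108, FDR = 5.62e-07). The log2 fold changes of the others were 1.80 for *hrp3* (SE 0.200, FDR = 8.96e-05), 1.23 for *set2* (SE 0.132, FDR = 7.13e-05), and 1.001 for *hip1* (SE 0.292, FDR = 0.0216). The call of *hip1* was kept in only 2 of 6 fits that left out a library and in 4 of 11 alternative fits. It was lost with RLE normalization, library totals, length correction (0.83), and each limma fit. The call of *hrp3* was lost on the scale of log2(FPKM + 1), at 0.94.

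Of the 13 genes for 3′ end processing and termination, all were tested, and 1 was called higher (4.71% of all tested genes were) and 0 lower (3.64%). This was *ppn1* (SPCC74.02c), for a subunit of the phosphatase module of the cleavage and polyadenylation factor, with 187, 127, and 174 counts in *htb1-K119R* and 48, 42, and 130 in WT (log2 fold change 1.01, SE 0.228, FDR = 0.00629). Its call was also kept in only 2 of 6 fits that left out a library. Of the 11 alternative fits 7 kept it, and it was lost after length correction (0.81) and on the scale of log2(FPKM + 1). At an FDR below 0.05, where 37.9% of all tested genes passed, 3 of the list were higher, including the torpedo exonuclease gene *dhp1* (log2 fold change 0.58, FDR = 0.00799), and 2 were lower, including the phosphatase gene *ssu72* (log2 fold change −0.71, FDR = 0.00488). The median log2 fold change of the list was −0.02. In the RefSeq annotation, *mtl1*, *cid14*, *set2*, *hrp1*, *hip1*, and *ppn1* overlap a coding gene, and *rrp6*, *hrp3*, and *csl4* overlap non-coding genes only. The use of strand in counting is not given in the sources used here, so reads of overlapping transcripts cannot be told apart in these counts. The same holds for any member that lies over or against an annotated gene.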

How the data were processed

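RNA-seq of 3 *htb1-K119R* and 3 WT libraries was analyzed. Total RNA was extracted with Trizol, enriched with oligo(dT), and sequenced on an Illumina HiSeq 2500. The authors aligned the reads left after rRNA removal with HISAT2 (Ensembl release 45 genome). Per the labels, fastp, Bowtie2, StringTie, RSEM, and DESeq2 are also named in the submitters' processing notes. The authors deposited whole-number counts without normalization, and the counter is not given in the sources used here. The authors derived the deposited FPKM values per library via StringTie. The authors computed the deposited log2 fold change from their mean FPKM values, and these columns, the deposited *P* value and FDR, and a second table of genes past the authors' thresholds, were not used.

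The count table was tested in R 4.3.3 with edgeR 4.0.16 (TMM, filterByExpr, genotype as the only factor, glmQLFit and glmQLFTest), and *P* values were adjusted by Benjamini-Hochberg over 4969 genes. Each SE was back-calculated from the F statistic of its gene. Lengths were count over FPKM, scaled on RefSeq ASM294v3 transcripts, for rows with at least 20 counts in a library. Shares and detection were compared by two-sided exact permutation tests. Counting intervals and limits cover counting error only.

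Alternatives were DESeq2 1.42.0, RLE normalization, library totals, a minimum of 10 counts in every library or no filter, a replicate block, lowess length offsets (span 0.3) with and without the block, limma 3.58.1 on log2(FPKM + 1) and log2(FPKM + 0.1) with a mean FPKM minimum of 1, and on log2(FPKM + 1) without it, an FDR limit of 0.01, and each library left out. The restriction to members at the filter level in each genotype was chosen after seeing the data. Named members are the called ones, the 5 of highest mean FPKM, and those with annotation text. The members, lists, and rules were chosen with earlier results of these data known. The *asf1* gene of the second list did not match a symbol in the table. The methods were tested on simulated data, in which only genes of higher count were changed, and by more than the 2-fold limit. That test therefore does not cover members of low count or changes near the limit. Python 3.11.15, numpy 2.4.6, and pandas 2.3.3 were used.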

Additional observations from a re-analysis of the deposited data

How the results depend on the processing

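With at least 10 counts in every library, or with only members at the filter level in each genotype, 3 were called higher in *htb1-K119R*. With limma on log2(FPKM + 1), with or without the filter on mean FPKM, 2 were called lower. At an FDR below 0.05, 5 were higher with at least 10 counts in every library and 14 with length correction, while 4 were lower with library totals and 5 in each of the 3 limma fits. The median log2 fold change of members was 0.17 with library totals, 0.21 with length correction, 0.22 with length correction and the replicate block, 0.16 and 0.14 in limma on log2(FPKM + 1) with and without the filter, and 0.25 in limma on log2(FPKM + 0.1). Leaving out each library gave 5 to 8 called higher, 3 to 4 called lower, 7 to 12 higher and 5 to 10 lower at an FDR below 0.05, and medians from −0.14 to 0.06. Of these, 5 called higher and 10 lower at an FDR below 0.05 were found without WT replicate 3, and 5 lower at an FDR below 0.05 without *htb1-K119R* replicate 1 or WT replicate 2. The cause of these shifts was not tested, except that the stricter filter tests fewer members (31).

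The sign of the log2 fold change flipped for members close to 0. For MSTRG.2892 it was 0.17 with library totals, 0.21 with length correction, 0.22 with length correction and the replicate block, 0.16 in each limma fit, and −0.197 to 0.074 when each library was left out. For MSTRG.2341 it was 0.024 with library totals, 0.0854 with length correction, 0.0968 with the block added, 0.0362 (with or without the filter) and 0.0746 in limma on log2(FPKM + 1) and log2(FPKM + 0.1), and −0.285 to 0.0702 when each library was left out. For MSTRG.4303 it was 0.0662 with library totals, 0.0104 with the replicate block, 0.14 with length correction, 0.22 with length correction and the block, 0.12 and 0.27 in limma on log2(FPKM + 1) and log2(FPKM + 0.1), and −0.34 to 0.37 when each library was left out.

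The difference in share was 0.00263 percentage points of counted reads and 0.00921 of summed FPKM, with −0.00111 to 0.00561 when each library was left out. The difference in members detected was 4.33 at 10 counts (3.67 to 5.17 when each library was left out), 1.33 at 3 counts, and 3 at 1 CPM. The mean of the library medians was 3.41 FPKM over all members and 4.37 over those with at least 10 counts in every library, and the median length at 100 counts was 1371 nt. After length correction 0 exosome genes were called lower and 0 termination genes higher.

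Whether the replicate numbers pair the libraries was not settled. Same-numbered libraries correlated at −0.264, 0.421, and 0.287 in their deviations from the genotype means. Replicates 2 and 3 of *htb1-K119R* correlated best with the WT library of their own number, whereas *htb1-K119R* replicate 1 correlated best with WT replicate 3 (0.369). Seen from WT, only replicate 2 correlated best with its own number. WT replicate 1 correlated best with *htb1-K119R* replicate 2 (0.383), and WT replicate 3 with *htb1-K119R* replicate 1. With 3 libraries per genotype, such correlations cannot decide it. With the replicate block, 6 members were called higher and 3 lower, 12 were higher and 9 lower at an FDR below 0.05, and the median was 0.01. Of the 39 members with a derived length, 19 had at least 100 counts in a library.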

Other observations

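The 6 assembled rows that carry a symbol were not counted among the members. MSTRG.5078, labelled *wtf33* after a family of meiotic drive genes, had 156, 174, and 184 counts in *htb1-K119R*, against 54, 58, and 98 in WT (log2 fold change 1.10, FDR = 0.000937 in the edgeR fit). MSTRG.4291, labelled SPCC569.03, had 260, 244, and 226 counts in *htb1-K119R* and 317, 426, and 560 in WT (log2 fold change −1.06, FDR = 0.000289). MSTRG.2383, labelled SPBC460.01c, had 31, 33, and 33 counts in *htb1-K119R* and 50, 62, and 105 in WT (log2 fold change −1.34, FDR = 0.00106). The remaining 3 were not called, namely MSTRG.2379 (YJL213W) with a log2 fold change of −0.89, MSTRG.2166 (*wtf1*) with 0.11, and MSTRG.4286 (ART2) with −0.14. The *wtf* genes form a family of similar copies, and how reads were divided among copies is not given in the sources used here, so the values of *wtf33* and *wtf1* are uncertain.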
